A study of Rattus norvegicus with 6 samples.

Results

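Organic anion, cation and urate carriers of the proximal tubule were measured as 9 genes on 1-colour Agilent arrays of renal cortex RNA from male Sprague-Dawley rats, 1 array per animal. The genes were Slc22a2, Slc22a6, Slc22a7, Slc22a8, Slc22a12, Slc17a1, Slc17a3, Slc47a1 and Slc2a9, taken as every probe whose transcript accession leads to one of these symbols in the rat RefSeq gene table. All 9 of 9 were found, on 16 of the 27460 named probes, and each of these probes was well above background on all 6 arrays. They are 9 of the 11965 genes that could be tested. The animals, 5 weeks old at purchase, received water (n = 3) or nitrilotriacetic acid trisodium monohydrate (NTA, a metal chelator) at 1000 mg per kg per day (n = 3), both for 4 weeks, and the series calls them biological replicates. The labels do not state the route of dosing.

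Proximal tubule cells clear drugs, toxins and urate in series. Carriers of the basolateral membrane take organic ions up from blood, and other carriers and ATP-driven pumps pass them across the luminal brush border into urine, while some luminal carriers run the other way and take urate back. Slc22a6 (OAT1) and Slc22a8 (OAT3) exchange organic anions for dicarboxylates at the basolateral side, and Slc22a2 (OCT2) takes up cations there. At the luminal side Slc22a12 (URAT1) takes up urate, Slc17a1 (NPT1) and Slc17a3 (NPT4) carry urate and organic anions, and Slc47a1 (MATE1) releases cations in exchange for protons. Slc2a9 (GLUT9) carries urate, and its membrane depends on the isoform. Slc22a7 (OAT2) is placed on different sides in different species. These genes are therefore given apart from the contrast of sides. Unlike humans, rats degrade urate further with uricase.

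Levels are log2 processed signal relative to the array's 75th percentile of that signal, which lay between 1132.6 and 1316.4 across the arrays. A level belongs to its probe, so levels were compared between animals and not between genes. Water 1 and NTA 2 shared 1 slide, scanned on a second day. The other water arrays lay on 1 slide and the other NTA arrays on another, both scanned on the first day, so within that day slide and treatment cannot be told apart. Defining genes of the proximal tubule were present, all 6 of 6 being measured, with a mean level of 5.99 to 6.05 in water and 5.78 to 6.03 in NTA. In RNA from whole cortex, fewer cells of a type and less RNA per cell cannot be told apart.

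None of the 9 carriers passed the test, limma's moderated test with Benjamini-Hochberg adjustment over all genes and a threshold of 0.05, by which 0.0752% of all genes (9 of 11965) were called. Slc17a1 came closest, at rank 10 of all genes when ordered by p. At an unadjusted p under 0.05, 5 of the 9 were higher in NTA, where 7.76% of all genes were, and 0 of the 9 were lower, against 4.51% of all genes. The higher share among all such genes was 63.2%, but 50.4% with arrays scaled to their median and 52.0% under quantile normalization. For the same 5 carriers, Slc17a1, Slc17a3, Slc22a12, Slc22a2 and Slc2a9, every NTA array lay above every water array, which held for 13.0% of all genes. The reverse held for Slc47a1, as for 7.23% of all genes. A log2 difference of at least 0.5 in the direction of NTA was seen in 6 of the 9, against 4.15% of all genes. The median difference was 0.72 over the 9 carriers and 0.02 over all genes. The carriers were chosen with earlier results of these data known, so these counts are descriptions.

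**Figure D1:**
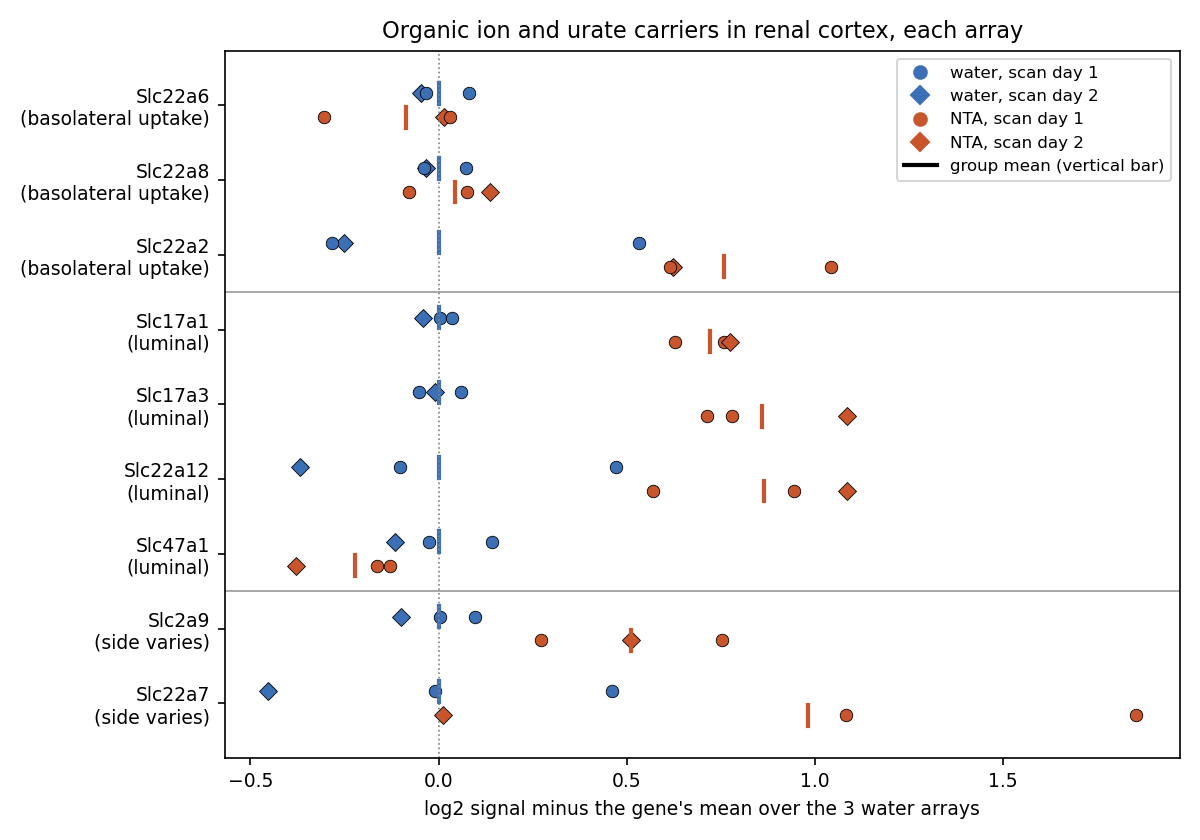
Level of each carrier on each array, as log2 signal minus the gene's mean over the 3 water arrays (horizontal axis), with water in blue, NTA in orange, circles for the first scan day, diamonds for the second and vertical bars for group means. Slc17a1 and Slc17a3 have wide gaps between the groups (0.59 and 0.65), Slc22a2 and Slc22a12 narrow ones (0.08 and 0.10), and Slc22a6 and Slc22a8 overlap around 0.

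Slc22a6, the main basolateral carrier of organic anions such as p-aminohippurate, had levels of 8.06, 8.18 and 8.07 in water and 7.80, 8.12 and 8.13 in NTA. NTA 1 was the lowest array and the groups overlapped. The difference was -0.09 ± 0.11 (log2, SE, adjusted p = 0.793), with a 95% interval from -0.35 to 0.18, and its other probe stood at -0.27. Slc22a8, the second basolateral anion exchanger, had levels of 7.77, 7.88 and 7.76 in water and 7.72, 7.94 and 7.88 in NTA. Its groups overlapped too, and its difference was 0.04 ± 0.08 (adjusted p = 0.857). The interval, from -0.15 to 0.24, reaches up to 0.24, so it does not show that the levels were the same. The other Slc22a8 probe stood at -0.03, of opposite sign.

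Slc22a2, the basolateral cation carrier, is known as a gene of higher expression in male than in female rat kidney. Its levels were 4.07, 4.86 and 4.04 in water and 5.36, 4.94 and 4.94 in NTA. Water 2 lay close to the NTA arrays, and NTA 1 was the highest. The difference was 0.76 ± 0.26, or 1.69-fold (adjusted p = 0.349), and the second probe gave 0.71. The shared slide gave 0.87 and the first scan day 0.70. The 95% interval of this single gene, which is not adjusted for the number of genes, ran from 0.13 to 1.39, whereas those of both basolateral anion carriers hold 0.

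Slc17a1 and Slc17a3 are neighbouring genes on chromosome 17, and Slc22a8 and Slc22a6 are neighbours on chromosome 1. The sequences before the start sites are shown for the Slc17 pair, whose groups lay farthest apart, for the luminal urate carrier Slc22a12, and for Slc22a8 as a carrier whose groups overlapped. They come from RefSeq (build GRCr8), which held an entry for 7 of the 9 carriers, and are the 250 bases before the start, 5′ to 3′ in the direction of the gene. They are in lower case throughout, since neither motif searched had a match on either strand.
Slc17a1, chr17:41681175-41681424, reverse strand: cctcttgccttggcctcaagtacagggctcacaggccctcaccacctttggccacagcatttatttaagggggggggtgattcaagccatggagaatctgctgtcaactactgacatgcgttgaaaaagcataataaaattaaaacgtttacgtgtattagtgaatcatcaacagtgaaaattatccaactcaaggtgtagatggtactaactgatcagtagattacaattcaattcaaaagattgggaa
Slc17a3, chr17:41723110-41723359, reverse strand: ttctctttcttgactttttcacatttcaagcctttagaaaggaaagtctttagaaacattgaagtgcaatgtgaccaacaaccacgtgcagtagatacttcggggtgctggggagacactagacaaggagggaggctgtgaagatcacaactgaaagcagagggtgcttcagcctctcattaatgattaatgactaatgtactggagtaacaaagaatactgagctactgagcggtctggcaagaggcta
Slc22a12, chr1:213281381-213281630, reverse strand: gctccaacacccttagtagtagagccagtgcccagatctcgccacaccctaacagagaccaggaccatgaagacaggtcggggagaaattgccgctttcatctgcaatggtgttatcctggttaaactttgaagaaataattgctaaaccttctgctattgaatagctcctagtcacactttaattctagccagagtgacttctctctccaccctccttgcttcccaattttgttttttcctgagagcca
Slc22a8, chr1:214927034-214927283, forward strand: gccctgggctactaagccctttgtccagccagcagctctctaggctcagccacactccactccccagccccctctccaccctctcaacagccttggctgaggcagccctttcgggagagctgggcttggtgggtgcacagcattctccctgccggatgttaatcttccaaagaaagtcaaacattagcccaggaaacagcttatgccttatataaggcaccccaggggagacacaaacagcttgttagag

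Of the 7 carriers none held CAAAGTCCA, a binding sequence of the transcription factor HNF4, which was in 0.331% of the 27457 sequences of this length searched. None held TGACNNNGC, the core of the antioxidant response element, either (10.2% of all sequences). These letters describe the windows and do not show binding. Hnf4a itself differed by 0.02 ± 0.09 between the groups.

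Slc17a1, which encodes a luminal carrier of urate, organic anions and phosphate, had levels of 1.81, 1.85 and 1.88 in water and 2.61, 2.62 and 2.47 in NTA. The arrays of each group lay close together and the groups were 0.59 apart. The difference was 0.72 ± 0.07, or 1.65-fold (adjusted p = 0.0513, with 0.0148 to 0.320 over the alternatives), and the 95% interval ran from 0.56 to 0.88. The shared slide gave 0.82 and the first scan day 0.67. Its adjusted p lay under 0.05 in 4 alternatives: 0.0148 for eBayes with trend and robust, 0.0418 with the mean of all probes, 0.0459 under normexp and 0.0453 with slide as a random block. In every other alternative with a test it lay above 0.05, from 0.115 to 0.229 with 1 array left out. Slc17a1 has 1 probe, so the mean of all probes left its own levels unchanged.

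A ratio within each array does not depend on a constant by which the whole array is scaled. Quantile normalization and normexp are not such constants and can change it. Under quantile normalization the difference of Slc17a1 was 0.69 and that of Slc22a8 -0.09, against 0.72 and 0.04 in the main fit. Set against Slc22a8 on the same array, Slc17a1 stood at -0.01, -0.07 and 0.08 around its own water mean in water and at 0.84, 0.64 and 0.55 in NTA. The groups did not overlap by this measure, but Slc22a8 itself differed by only 0.04. The ratio thus mostly repeats the difference of Slc17a1 and is not separate support for it. A ratio to Slc22a2, the basolateral carrier that differed by 0.76, was not taken.

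Slc17a3, the neighbouring gene and a luminal anion and urate carrier, had levels of 4.28, 4.23 and 4.35 in water and 4.998, 5.37 and 5.07 in NTA. NTA 2 was the highest array and all NTA arrays lay above water. The difference was 0.86 ± 0.11, or 1.81-fold (adjusted p = 0.0937), with 1.09 within the shared slide and 0.74 within the first scan day. It passed with eBayes with trend and robust (adjusted p = 0.0399, with 0.0399 to 0.361 over the alternatives). Each of these 2 genes was measured by 1 probe, and probe sequences were not used here, so signal shared between the paralogs was not tested. The next gene of the cluster, Slc17a2, differed by 0.12 ± 0.07 (adjusted p = 0.544).

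Slc22a12, the luminal urate exchanger, had levels of 3.92, 4.18 and 4.75 in water and 4.85, 5.37 and 5.23 in NTA. Water 3 nearly reached the lowest NTA array, a gap of 0.10. The difference was 0.87 ± 0.25, or 1.82-fold (adjusted p = 0.291), and the 3 probes of the gene gave 0.87, 0.88 and 0.87. The shared slide, with 1 animal per group, gave 1.45 and the first scan day 0.57.

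Slc47a1, which passes cations into urine after Slc22a2 has taken them up, was the exception at the luminal side. It had levels of 3.92, 4.01 and 4.17 in water and 3.87, 3.66 and 3.90 in NTA. All NTA arrays lay below all water arrays, by a gap of only 0.012. The difference was -0.22 ± 0.10 (adjusted p = 0.460), and the second probe stood at -0.27. The cation carriers of the 2 sides therefore had differences of opposite sign, 0.76 for uptake and -0.22 for release, neither of which passed.

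Slc2a9, a urate carrier of the glucose transporter family, had levels of 1.67, 1.86 and 1.77 in water and 2.04, 2.28 and 2.52 in NTA. NTA 1 was nearest to water and the groups lay 0.18 apart. The difference was 0.51 ± 0.13, or 1.43-fold (adjusted p = 0.275), and its second probe gave 0.31.

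Slc22a7, an anion carrier with cyclic nucleotides and purine metabolites among its known substrates, varied most among the NTA animals. Levels were -1.43, -0.52 and -0.99 in water and 0.88, -0.97 and 0.11 in NTA. NTA 2 lay among the water arrays and NTA 1 was the highest. The difference, 0.98 ± 0.50 (adjusted p = 0.491), was the largest of the 9 and the least certain, with a 95% interval from -0.24 to 2.20. Without NTA 1 it was 0.55 and without NTA 2 it was 1.47, and the shared slide gave 0.46 against 1.24 for the first scan day.

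**Figure D2:**
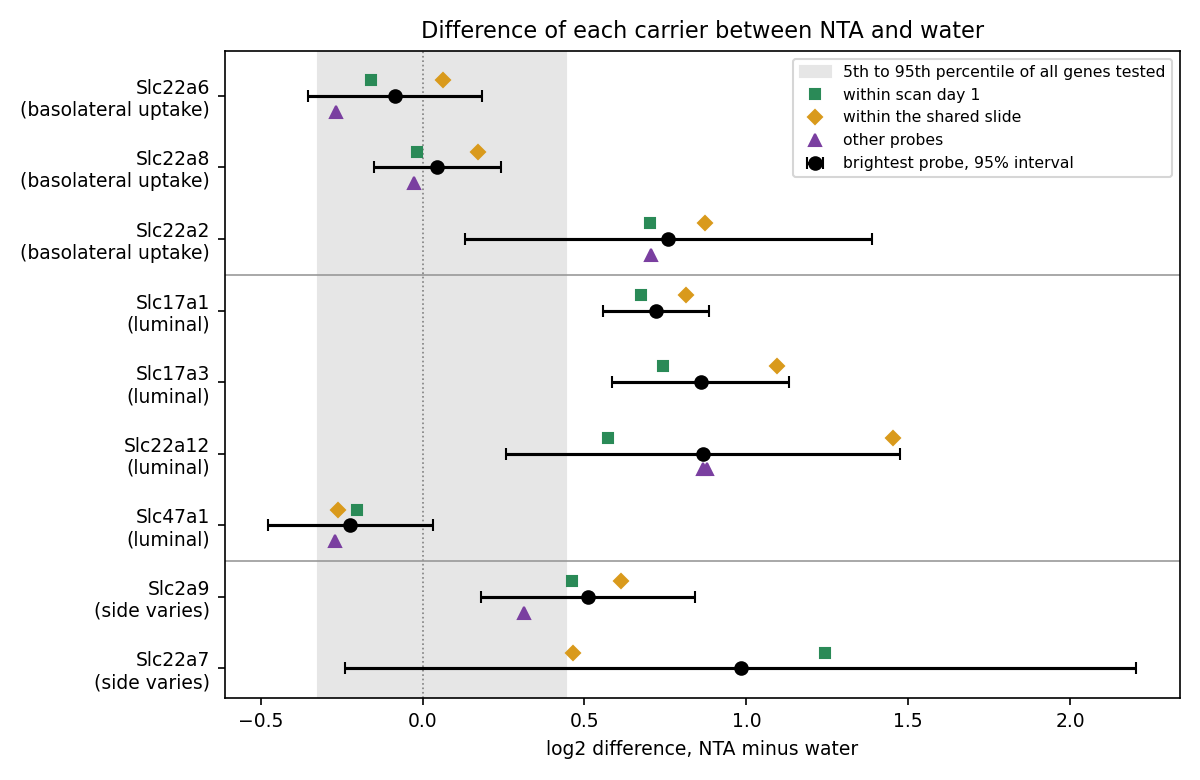
Log2 difference between NTA and water of each carrier (horizontal axis), with the 95% interval of the brightest probe (black), the gene's other probes (purple triangles), values within the first scan day (green squares) and within the shared slide (yellow diamonds), over the grey range from the 5th to the 95th percentile of all genes tested. Slc17a1, Slc17a3, Slc22a12, Slc22a2, Slc2a9 and Slc22a7 stand to the right of that range and Slc22a6, Slc22a8 and Slc47a1 within it.

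The contrast between the sides of the cell was described by medians. The luminal carriers (Slc22a12, Slc17a1, Slc17a3 and Slc47a1) had a median difference of 0.79 and the basolateral uptake carriers (Slc22a2, Slc22a6 and Slc22a8) one of 0.04. On each array, as deviations from the water means, the luminal median minus the basolateral one was -0.03, -0.12 and 0.14 in water and 0.72, 0.79 and 0.63 in NTA. The groups did not overlap by these medians, but single genes cross the divide: the basolateral differences ran from -0.09 to 0.76 and the luminal ones from -0.22 to 0.87. The basolateral median is the difference of Slc22a8. Medians give little weight to Slc22a2 (0.76) and Slc47a1 (-0.22), and means of the sides, which weigh them fully, were not compared. The separation of the sides therefore belongs to the medians. With Slc22a7 counted as basolateral the gap of 0.75 between the medians became 0.39, and with Slc2a9 counted there 0.51. The anion and urate carriers of the luminal side, Slc17a1, Slc17a3 and Slc22a12, differed by 0.72 to 0.87, and the basolateral anion carriers by -0.09 to 0.04. This narrower contrast was not among the planned results. It leaves out the cation carriers Slc22a2 and Slc47a1, which cross the divide, and also Slc22a7 and Slc2a9.

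Markers of tubule segments varied alongside part of these values. Of 5 markers of the S3 segment, the last stretch of the proximal tubule, the amino acid transporter gene Slc7a13 had levels of 4.77, 6.40 and 5.85 in water and 6.96, 6.37 and 6.53 in NTA. The ascorbate transporter gene Slc23a1 stood at 1.38, 2.07 and 1.63 in water and 2.98, 2.29 and 2.51 in NTA. In both, as in Slc22a7, water 1 was the lowest array and NTA 1 the highest, and in Slc22a2 NTA 1 was the highest and water 2 the highest of the water arrays, as in both markers. Their differences were 0.95 ± 0.43 and 0.90 ± 0.24. The other 3 members stood at 0.22 (Atp11a), -0.04 (Slc5a1) and -1.25 (Slc5a8), and the mean level of the list overlapped between groups, 2.16 to 2.64 in water and 2.36 to 2.72 in NTA. The 4 markers of the S1 segment, the first stretch, were all below 0, from -0.35 to -0.15, and their mean level did not overlap, 3.77 to 3.97 in water and 3.48 to 3.70 in NTA. None of these markers passed, and their part in the carriers' differences was not tested.

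**Figure D3:**
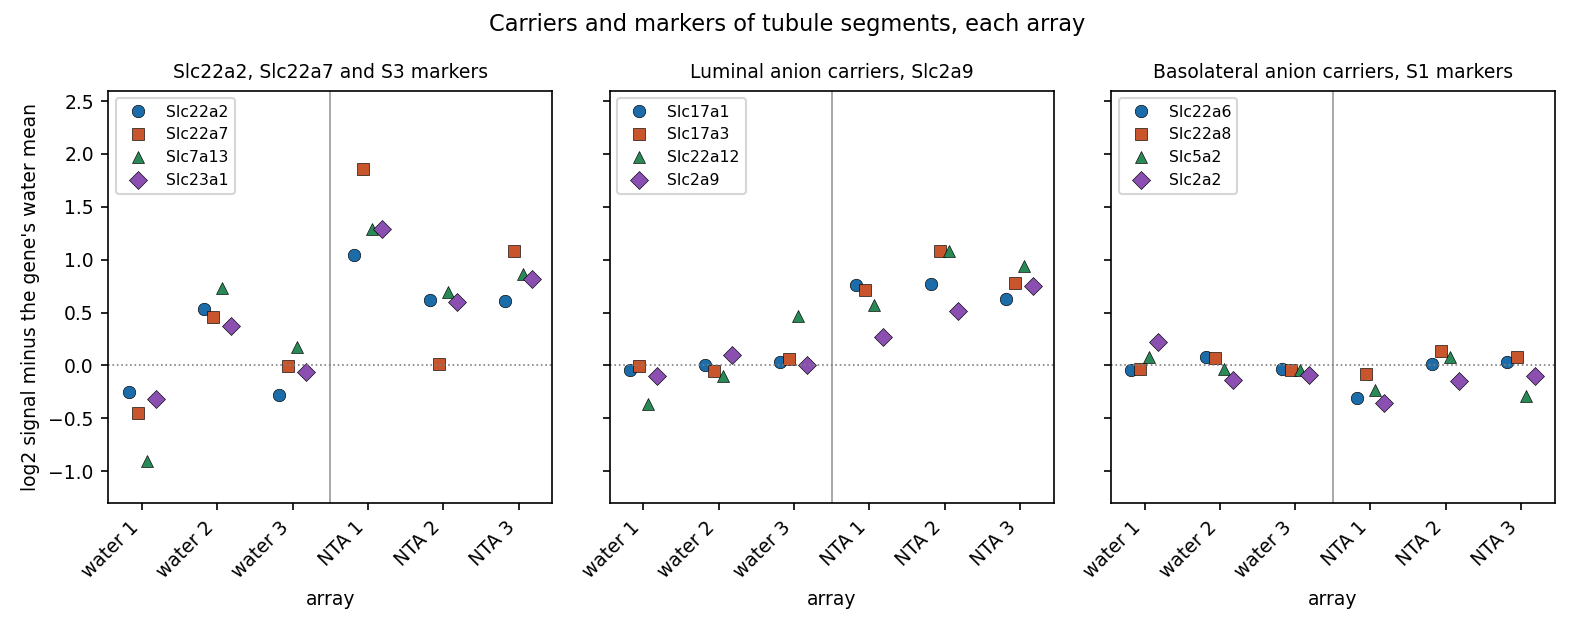
Log2 signal minus the gene's water mean on each array (vertical axis) for Slc22a2 and Slc22a7 with the S3 markers Slc7a13 and Slc23a1 (left), luminal anion carriers with Slc2a9 (middle) and basolateral anion carriers with the S1 markers Slc5a2 and Slc2a2 (right). Not drawn are the S3 markers Atp11a, Slc5a1 and Slc5a8, with differences of 0.22, -0.04 and -1.25. The S1 markers Slc5a12 and Slc7a7, at -0.31 and -0.35, are not drawn either. On the left water 2 stands above water 1 in all 4 genes and NTA 1 is highest, in the middle NTA lies above water for all 4 genes, and on the right the carriers stay near 0.

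Markers of other cells had list medians closer to 0 than those of the S1 and S3 lists. Lists for thick limb, distal convoluted tubule, principal cells, intercalated cells, endothelium, macrophages, fibroblasts and podocytes had medians from -0.09 to 0.13, and their mean levels overlapped between the groups. Single members stood farther out. All NTA arrays lay below water for the podocyte gene Nphs1 (-0.34) and the endothelial gene Emcn (-0.26), and above it for the intercalated cell gene Slc4a1 (0.35). The principal cell gene Scnn1g stood at -0.42 with overlapping groups. The macrophage genes Cd163 and Itgam and the distal tubule gene Pvalb did not pass the filter on dim probes. The 5 injury markers differed in direction, 4 above 0 and 1 below, with a mean level of -0.14 to 0.25 in water and 0.35 to 1.01 in NTA. Among these Clu, a secreted chaperone, differed by 1.16 ± 0.41 and Havcr1, kidney injury molecule 1, by 0.58 ± 0.53. For Havcr1 the shared slide, with 1 animal per group, gave 1.72 and the first scan day 0.01. For Clu these values were 0.44 and 1.53. Lcn2 had the largest difference of the 5, 1.21 ± 0.87, with levels of -1.81, -1.91 and -4.95 in water and -1.57, -1.44 and -2.04 in NTA. Its low value in water 3 is part of the lowest mean level of the list, -0.14, which was on that array. Vcam1, an adhesion molecule, stood at -0.23 ± 0.10, with all NTA arrays below water, and none of the 5 passed. The part of these differences in the carriers' values was not tested.

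Beyond the 9 carriers, 58 other genes of organic ion and urate transport were listed in 7 groups, and 50 were measured. Over all genes 0 of the 50 passed by limma, while at an unadjusted p under 0.05 there were 13 higher and 4 lower, against 7.76% and 4.51% of all genes. In 15 of them all NTA arrays lay above water and in 4 below, against 13.0% and 7.23% of all genes. The higher members were mostly uptake carriers, efflux pumps and purine enzymes, and 3 of the 4 lower ones were exchange partners.

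Among the other Slc22 carriers, 10 of 11 were measured, 8 above 0, with a median of 0.11. Slc22a18 differed by 0.16 ± 0.09 and Slc22a23 by 0.04 ± 0.14. Slc22a24, named after its values were seen, had the largest difference of the list, 1.07 ± 0.39 (adjusted p = 0.363), with levels of 0.75, 1.89 and 2.26 in water and 2.89, 2.63 and 2.58 in NTA.

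The organic anion transporting polypeptides, uptake carriers for steroid conjugates and other large anions, had a median of 0.20 over 9 of 10 members. Slco1a1 stood at 1.06, 2.36 and 1.69 in water and 2.79, 2.40 and 2.37 in NTA, and Slco1a6 differed by 1.03 ± 0.46. For Slco1a1 water 1 was again lowest and NTA 1 highest, and water 2 nearly reached the lowest NTA array. Its difference was 0.81 ± 0.33 (adjusted p = 0.409), and Slco3a1 stood at -0.03 ± 0.17.

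ATP-driven pumps complete the luminal and basolateral exit of anions. Of 9 pumps 8 were above 0, with a median of 0.36, and Abcc4 and Abcc2, luminal pumps for anions and conjugates, differed by 1.42 ± 0.19 and 1.34 ± 0.23, while Abcg2, a luminal urate and drug pump, stood at -0.02 ± 0.13. Abcc3, a basolateral pump for conjugates, is named after its values were seen. It had levels of -1.56, -1.57 and -1.59 in water and -0.59, -0.13 and -0.32 in NTA. All NTA arrays lay above water, with a difference of 1.23 ± 0.12 and the lowest adjusted p of the 7 lists, 0.0649 by limma. Pumps of both sides were thus among those with the larger differences.

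The exchange partners of these carriers had no common direction, since 4 of 8 lay above 0, and their median was -0.02. That median hides members whose groups lay apart. All NTA arrays lay below water in 3 of the 8, against 7.23% of all genes: Slc5a8, Slc16a1 (-0.73) and Slc5a12 (-0.31). They lay above water in 1, Slc26a6 (0.32), against 13.0% of all genes. Slc16a1, Slc5a12 and Slc26a6 are named here after their values were seen. Slc13a3, which supplies the dicarboxylates that Slc22a6 and Slc22a8 exchange, differed by 0.15 ± 0.10 and Slc13a2, its luminal relative, by 0.09 ± 0.10. Slc26a1, a basolateral sulfate exchanger, stood at -0.14 ± 0.10. Slc5a8 brings in the monocarboxylates that Slc22a12 trades for urate, and it lay on the other side from Slc22a12, at 1.19, 1.35 and 1.05 in water and -0.27, -0.23 and 0.35 in NTA. All NTA arrays were below all water arrays, with a difference of -1.25 ± 0.19 (adjusted p = 0.146).

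Scaffolds and transcription factors had a median of 0.02 over 7 of 8 members, with differences from -0.22 to 0.32. Pdzk1, a PDZ scaffold of the brush border that binds luminal carriers, differed by 0.03 ± 0.07 and its partner Pdzk1ip1 by -0.22 ± 0.08. Nherf1, a second scaffold, had the highest value of the list, 0.32 ± 0.09 (adjusted p = 0.288). All NTA arrays lay above water for Nherf1 and below it for Pdzk1ip1. Of the enzymes of urate and purine turnover, 4 of 7 were measured, all above 0. Xdh, which makes urate, stood at 0.08 ± 0.09, and the salvage enzymes Hprt1 and Aprt at 0.18 ± 0.06 and 0.29 ± 0.07. Urah, an enzyme of urate breakdown named after its values were seen, had the largest difference of the list, 1.22 ± 0.45 (adjusted p = 0.364), with all NTA arrays above water. Water 2, at -1.17, nearly reached NTA 1, at -1.11. The shared slide, with 1 animal per group, gave 2.54 and the first scan day 0.56. Uox, which degrades urate, did not pass the filter on dim probes.

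**Figure D4:**
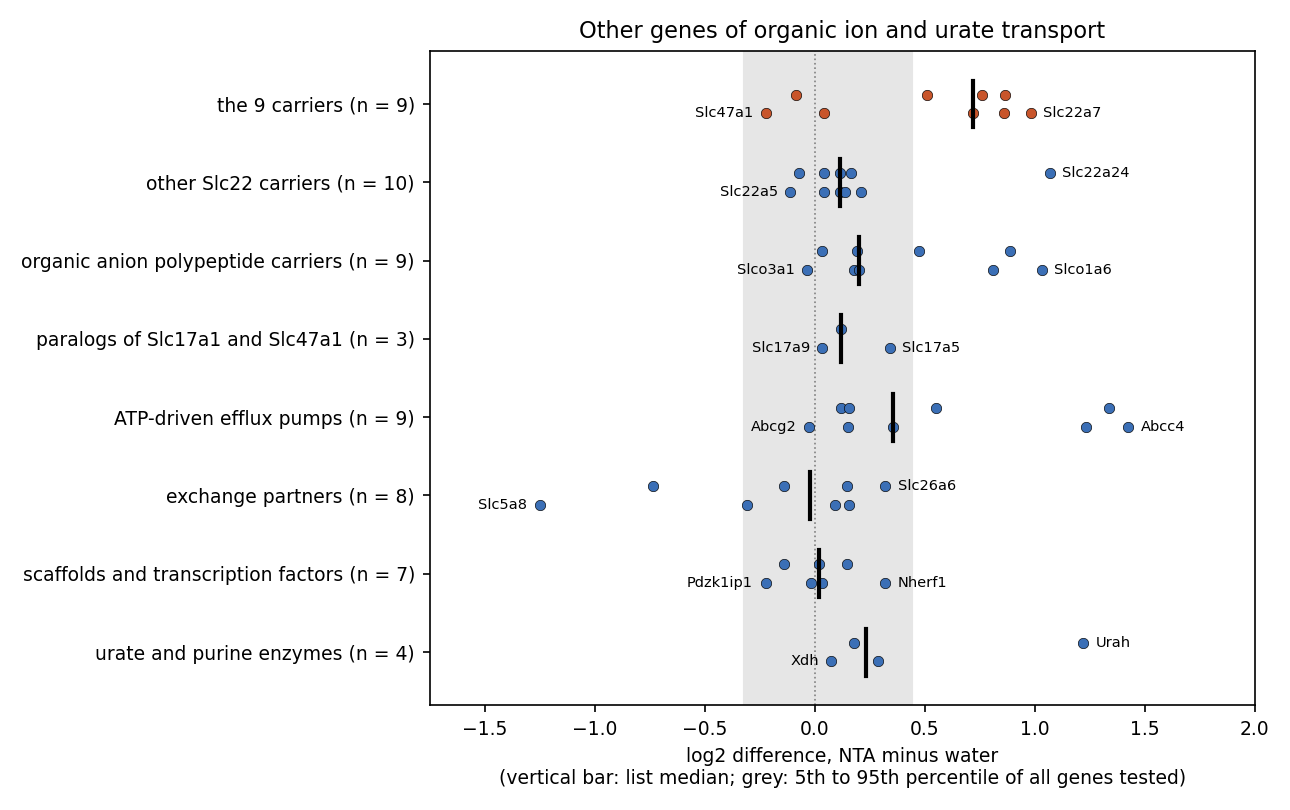
Log2 difference between NTA and water (horizontal axis) of each measured gene in the 9 carriers (orange) and in 7 other lists of the pathway (blue), with the list median as a vertical bar, the lowest and highest member named and the 5th to 95th percentile of all genes in grey. The carriers' median of 0.72 stands to the right of the other medians, which run from -0.02 to 0.36.

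The genes whose pattern over the 6 arrays was most like that of Slc17a1, by Pearson's r, were Trappc4 (r = 0.998), Vps39 (0.998), Blvrb (0.997), Usp4 (0.997) and Dap (0.996). With 3 arrays per group such values rest mostly on the step between the groups, which all these genes share by selection, and they are given as a description.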

How the data were processed

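RNA of 6 rats, 3 given water and 3 given NTA, was labelled with Cy3 and hybridised to 1 array each, per the labels' protocols. Agilent Feature Extraction 10.7.1.1 read the spots, per the file headers. The intensity used here is the processed signal that the authors deposited, linear, corrected for background and without scaling between arrays. A second deposited table gives each value as a ratio of this signal to 1 constant per array, close to its 75th percentile, as found from the values. It is linear, runs in the direction of signal, has no gene centring and has column medians of 0.111 to 0.116, and no label or header states how the constant was chosen.

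From each log2 signal the 75th percentile of its array, taken over the 61657 spots that are not controls, was subtracted. Controls, spike-ins and spots marked as outliers were dropped, a probe had to be well above background on all 3 arrays of a group, and the brightest probe stood for its gene. Of 61573 probes, 27460 were named by accession through RefSeq (GRCr8). Water and NTA were compared over all 11965 genes with limma 3.58.1 in R 4.3.3 (lmFit, eBayes), two-sided, which also gave SE and the 95% interval, and the fit was tested on simulated data. The simulated noise was independent between arrays, without slide or scan day effects. How often differences as small as those of the carriers were recovered is not given here. The number of arrays limits the precision.

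The 9 carriers, the other lists and the membrane sides were chosen with earlier results of these data known. By rule the text names all carriers, the 3 members of highest mean signal in each pathway list, any member past the threshold, Pdzk1, Nherf1, Hnf4a, Slc13a3, Slc5a8, Abcc2, Abcc4 and Xdh, and the 5 genes most like Slc17a1. Some genes under this rule are not reported here. Other genes, such as the segment and injury markers, Slc22a24, Abcc3, Slc16a1, Slc26a6 and Urah, were picked with their values in view. The alternatives were quantile normalization, normexp (offset 50, on median spot and background signals, not on the mean signal that had been planned), median scaling, the deposited ratio values, no filter, the mean of all probes, eBayes with trend and robust, blocks for replicate number, scan day and slide, and each array left out.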

Additional observations from a re-analysis of the deposited data

How the results depend on the processing

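Of 171 values of the 9 carriers under alternatives, 165 kept their sign, and the other 6 belong to Slc22a6 and Slc22a8, both near 0 in the main fit. Many of the 171 are not separate checks. For the carriers, eBayes with trend and robust, no filter, and blocks for replicate number and scan day repeat the main differences. A fixed block for slide repeats the differences within the shared slide. Slc22a6 stood at 0.062 with slide as a fixed block, the same value as within the shared slide, and between -0.14 and 0.024 with 1 array left out. It was lower at -0.22 under quantile normalization, -0.18 with the mean of all probes and -0.16 within the first scan day. Slc22a8 stood at -0.087 under quantile normalization, at 0.17 within the shared slide, at -0.018 within the first scan day and between -0.0015 and 0.11 with 1 array left out. Within the shared slide Slc17a1 (0.82), Slc17a3 (1.09) and Slc22a12 (1.45) moved by more than the spread between replicates. The number of carriers called went from 0 to 2 with eBayes with trend and robust, where Slc17a1 (0.72) and Slc17a3 (0.86) passed, and to 1, Slc17a1, with the mean of all probes (0.72), under normexp (0.73) and with slide as a random block (0.72). Over all genes 9 were called, against 38 with eBayes with trend and robust, 22 under normexp, 5 with slide as a fixed block, 0 to 4 with 1 array left out, and 0 under median scaling, quantile normalization, without the filter, which tests 15284 genes, and with scan day as a block. The gap between the luminal and basolateral medians became 0.39 with Slc22a7 and 0.51 with Slc2a9 counted as basolateral, and ran from 0.66 to 0.79 with 1 array left out. Except where the alternative's construction shows it (fewer degrees of freedom, more genes tested, another member counted), the cause was not tested.

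With replicate number as a replicate block 0 genes passed, Slc17a1 among those that did not (adjusted p = 0.320). Same-numbered arrays did not deviate together (correlations 0.07, -0.09 and 0.04), and not every array correlated best with its own number, so the numbers were not taken as pairs. With 3 against 3 arrays an exact permutation test of 1 gene cannot go below 0.1.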
